A study of Mus musculus with 9 samples.

Results

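The fatty acid elongases are 7 mouse genes, Elovl1 to Elovl7, among the 32285 gene identifiers counted in 9 RNAseq libraries of primary stromal vascular fraction (SVF) cells. They were chosen by name, by matching Ensembl identifiers to symbols, and all 7 were found. SVF cells are what remains of fat once the mature adipocytes are removed, and include preadipocytes. These came from the subcutaneous white adipose tissue of wild-type mice aged 4 to 6 days. MIZ cells were kept for 6 days in adipogenic medium with 25 µM mizoribine (MIZ), an inhibitor of inosine monophosphate dehydrogenase and so of guanine nucleotide synthesis. Vehicle cells were kept for the same 6 days in adipogenic medium with vehicle. Undifferentiated cells were not put through adipogenic differentiation. Each group had 3 libraries, which the study calls biological replicates. Adipogenic medium held insulin, dexamethasone and IBMX for the first 2 days, and after that insulin, triiodothyronine and the PPARγ agonists troglitazone and rosiglitazone, so both differentiated groups had received PPARγ agonists and thyroid hormone that the medium for undifferentiated cells was not stated to hold.

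Elongases work in the membrane of the endoplasmic reticulum. An elongase condenses an acyl-CoA with malonyl-CoA, which is the rate-limiting step of a cycle that lengthens the chain by a pair of carbons. The resulting ketone is reduced by HSD17B12, dehydrated by one of the HACD enzymes and reduced again by TECR. The elongases differ in the chains they accept. ELOVL6 turns palmitate into stearate, ELOVL1, ELOVL3 and ELOVL7 mainly lengthen saturated and monounsaturated chains, ELOVL2 and ELOVL5 act on polyunsaturated ones, and ELOVL4 makes the longest chains, of retina, brain and skin. Elovl3 is known in mice for its activity in brown fat, where cold induces it, and in the sebaceous glands of the skin.

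Libraries held 33504937 to 43281818 counts in MIZ, 28760721 to 50262228 in vehicle and 42217231 to 55288455 in undifferentiated cells, and 5124 to 12784 counts per library fell on elongases. Levels are CPM, counts scaled to library size after TMM normalization, and a gene was called at a Benjamini-Hochberg adjusted p under 0.05 in edgeR's quasi-likelihood test over all genes tested. All samples are labelled primary adipocytes. Over 8 adipocyte markers, the summed level was 1012 to 1262 CPM in MIZ, 14420 to 15210 CPM in vehicle and 78.2 to 79.9 CPM in undifferentiated cells, where Cidec and Lep were at 0. Over 7 preadipocyte markers, it was 841.1 to 978.5 CPM in MIZ, 281.9 to 369.6 CPM in vehicle and 987.7 to 1076 CPM in undifferentiated cells. Pdgfra and Thy1 carried this sum in MIZ cells, at 386.7 and 353.2 CPM. In MIZ against vehicle 3 of the 7 were called higher, beside 35.9% of all genes tested, and 3 were not called. Cd34 was called lower, as were 35.1% of all genes tested, at 0.681 CPM in MIZ and 1.38 CPM in vehicle cells. Sums over the markers of other cell types also moved. They were 2.60 to 4.03 CPM in MIZ, 5.36 to 7.35 CPM in vehicle and 27.4 to 29.7 CPM in undifferentiated cells for 6 endothelial markers. Tek carried this sum, at 1.97 CPM in MIZ, 4.35 CPM in vehicle and 20.4 CPM in undifferentiated cells. Of the 5 endothelial markers tested in MIZ against vehicle, 2 were called lower, beside 35.1% of all genes tested, and 3 were not called. For 5 mural markers they were 91.7 to 94.1 CPM in MIZ, 107.4 to 115.4 CPM in vehicle and 91.2 to 102.3 CPM in undifferentiated cells. The highest mural sum, in vehicle, came from Cspg4, at 12.5 CPM in MIZ, 63.3 CPM in vehicle and 9.70 CPM in undifferentiated cells. In vehicle against undifferentiated cells, however, 3 of the 5 were called lower, beside 41.5% of all genes tested (median −3.40 on the log2 scale). For 5 Schwann cell markers the sums were 44.0 to 61.6 CPM in MIZ, 17.8 to 20.5 CPM in vehicle and 25.9 to 30.5 CPM in undifferentiated cells. Mitochondrially encoded genes took 0.686% to 0.836% of the counts in MIZ, 3.82% to 5.0% in vehicle and 0.837% to 0.891% in undifferentiated cells. These are bulk samples, in which fewer cells of a type and less RNA per cell cannot be told apart. The part of these differences in the results for the elongases was not tested.

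In MIZ against vehicle, 6 of the 7 elongases could be tested and all 6 were called, 1 higher and 5 lower. Over all 17173 genes tested, 71.0% were called in this comparison, 35.9% higher and 35.1% lower, so that a call by itself does not set the elongases apart. The median log2 fold change was −0.82 over the 6 elongases and 0.02 over all genes tested. In vehicle against undifferentiated, 2 elongases were called higher, 3 lower and 1 was not called, where 77.7% of all genes tested were called, 36.2% higher and 41.5% lower. In MIZ against undifferentiated, 2 were called higher and 4 lower, where 67.0% of all genes tested were called, 33.7% higher and 33.3% lower. The comparisons share libraries with each other. The plot of elongase levels by library shows the groups in different orders for different elongases.

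**Figure D1:**
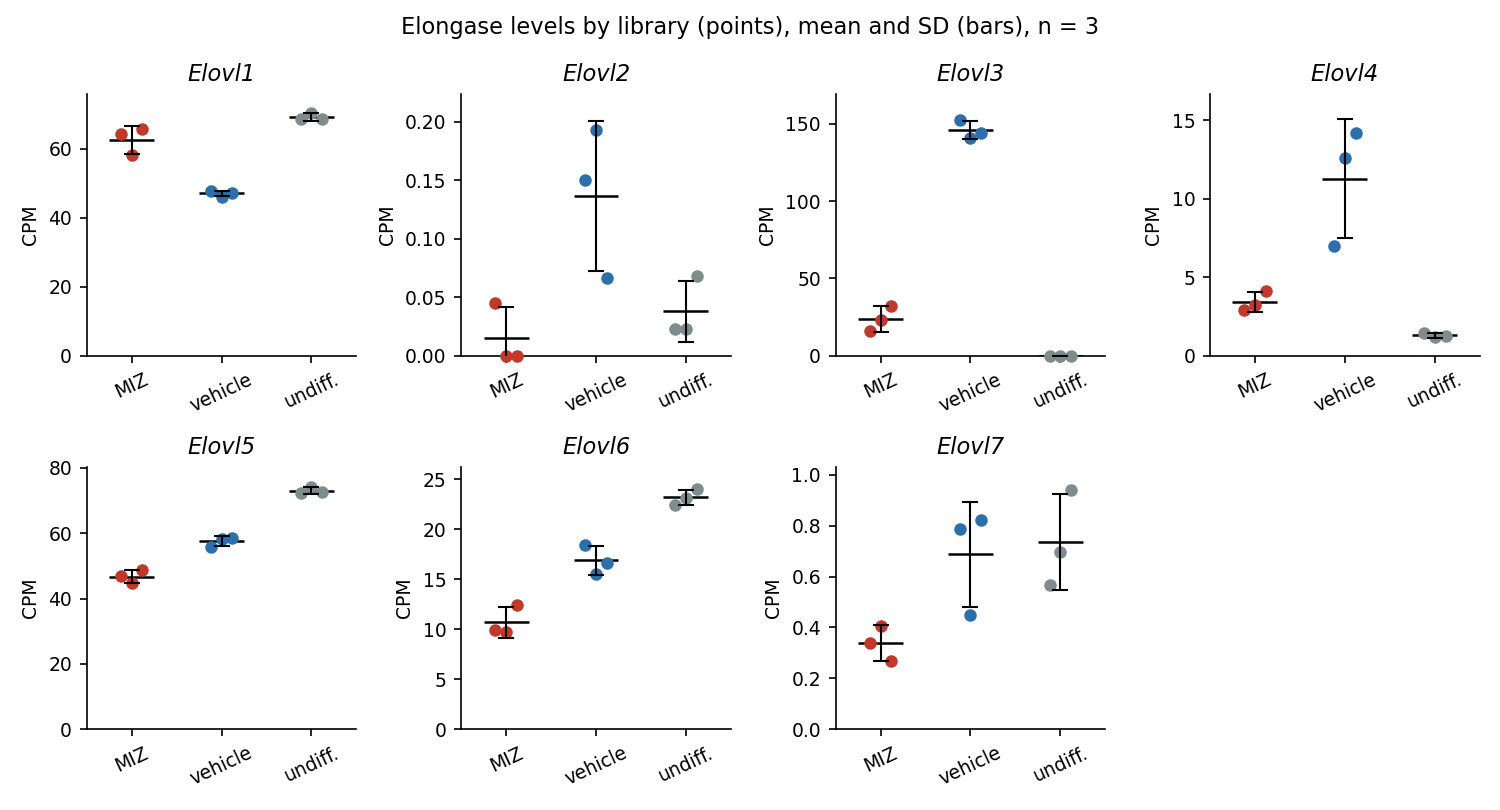
Level of each of the 7 elongases (vertical axes, CPM, each from 0 with its own scale) in MIZ, vehicle and undifferentiated cells (horizontal axis, undiff.), with 1 point per library and lines for the mean and SD of 3 libraries. Elovl3 and Elovl4 are highest in vehicle, Elovl5 and Elovl6 lowest in MIZ and highest in undifferentiated cells, and Elovl1 lowest in vehicle.

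Elovl3 (ENSMUSG00000038754, GRCm38 chr19:46131897-46135694, plus strand) had the largest fold change of the 6 tested elongases in each comparison. It had 16.0, 23.1 and 32.4 CPM in MIZ, 152.5, 141.0 and 144.4 CPM in vehicle, and 0.0227, 0 and 0.0512 CPM in undifferentiated cells. Every MIZ library was below every vehicle library and above every undifferentiated library. Elovl3 in MIZ cells was at 16.2% of its level in vehicle cells (log2 fold change −2.62, SE 0.195, adjusted p = 3.54e-07 by edgeR). Undifferentiated cells held 4 Elovl3 counts over their 3 libraries, against 2651 in MIZ and 17131 in vehicle cells. The level was therefore 849-fold higher in MIZ than in undifferentiated cells (95% interval 331 to 3120, counting error only) and 5330-fold higher in vehicle than in undifferentiated cells (2080 to 19600). edgeR called Elovl3 higher in both comparisons (adjusted p = 2.62e-08 for MIZ and 4.26e-10 for vehicle). Of the 4 counts, 3 came from undifferentiated replicate 3, and without that library edgeR's log2 fold change, which depends on its prior count here, was 10.68 in place of 9.62 for MIZ and 13.30 in place of 12.24 for vehicle. The 3 MIZ libraries spread over a range that the vehicle libraries did not. Library MIZ 3 was highest and MIZ 1 lowest, and the same libraries had the highest and lowest sums of adipocyte markers, at 1262 and 1012 CPM, with 1127 CPM in MIZ 2. The part of the adipocyte markers in the spread of Elovl3 was not tested.

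Markers of skin cells were followed because of what is known of Elovl3. The 6 keratinocyte markers summed to 0.434 to 0.589 CPM in MIZ, 0.343 to 0.556 CPM in vehicle and 0.376 to 0.704 CPM in undifferentiated cells, with Krt1 at 0 in all groups. The 6 sebaceous markers summed to 2.12 to 2.51 CPM in MIZ, 121.2 to 131.7 CPM in vehicle and 0.227 to 0.405 CPM in undifferentiated cells. In vehicle cells this sum was carried by Scd3, a stearoyl-CoA desaturase, at 87.3 CPM and by Mc5r, a melanocortin receptor, at 39.0 CPM, and Dgat2l6 was at 0 in all groups. Krt79 averaged 0.0513 CPM in MIZ and 1.22 CPM in vehicle cells.

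Elovl4 (ENSMUSG00000032262, GRCm38 chr9:83778692-83806277, minus strand) followed the same order of groups at a lower level. It had 2.90, 3.23 and 4.11 CPM in MIZ, 7.01, 12.6 and 14.2 CPM in vehicle, and 1.43, 1.19 and 1.23 CPM in undifferentiated cells. No library of one group overlapped another group, although vehicle 1, the library with the fewest counts, lay well below the other vehicle libraries. Elovl4 in MIZ cells was at 29.7% of its level in vehicle cells (log2 fold change −1.75, SE 0.235, adjusted p = 4.91e-05 by edgeR). It was 8.90-fold higher in vehicle than in undifferentiated cells (log2 fold change 3.15, SE 0.257, adjusted p = 5.79e-07) and 2.65-fold higher in MIZ than in undifferentiated cells (1.40, SE 0.275, adjusted p = 0.00094).

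Elovl6 (ENSMUSG00000041220, GRCm38 chr3:129532355-129638495, plus strand), the elongase of newly made palmitate, was lowest in MIZ cells. It had 9.88, 9.72 and 12.5 CPM in MIZ, 18.5, 15.6 and 16.6 CPM in vehicle, and 22.5, 23.1 and 24.0 CPM in undifferentiated cells, with no overlap between groups. Elovl6 in MIZ cells was at 63.4% of its level in vehicle cells (log2 fold change −0.66, SE 0.101, adjusted p = 0.000141 by edgeR) and at 46.0% of its level in undifferentiated cells (−1.12, SE 0.0994, adjusted p = 2.25e-06). It was also lower in vehicle than in undifferentiated cells, at 72.5% (−0.46, SE 0.0965, adjusted p = 0.0011). Elovl6 shares 3.98% of its stretches of 50 bases with transcripts of other genes, against at most 0.139% for each other elongase, so some of its reads could be assigned elsewhere.

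Elovl5 (ENSMUSG00000032349, GRCm38 chr9:77917364-77984519, plus strand), an elongase of polyunsaturated chains, followed the order of Elovl6 with smaller differences. It had 46.9, 44.7 and 48.7 CPM in MIZ, 55.8, 58.4 and 58.5 CPM in vehicle, and 72.3, 74.3 and 72.7 CPM in undifferentiated cells. The groups did not overlap. Elovl5 in MIZ cells was at 81.1% of its level in vehicle cells (log2 fold change −0.30, SE 0.0459, adjusted p = 0.000129 by edgeR) and at 63.9% of its level in undifferentiated cells (−0.65, SE 0.0456, adjusted p = 3.78e-07). Vehicle cells were at 78.8% of undifferentiated cells (−0.34, SE 0.0452, adjusted p = 3.33e-05).

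Elovl1 (ENSMUSG00000006390, GRCm38 chr4:118428093-118432953, plus strand), a ubiquitous elongase of saturated very long chains, was the single elongase called higher in MIZ than in vehicle cells. It had 64.1, 58.0 and 65.6 CPM in MIZ, 47.8, 46.1 and 47.1 CPM in vehicle, and 68.7, 70.5 and 68.4 CPM in undifferentiated cells. It was 1.33-fold higher in MIZ than in vehicle cells (log2 fold change 0.41, SE 0.0515, adjusted p = 2.71e-05 by edgeR) and lower in vehicle than in undifferentiated cells (−0.56, SE 0.0513, adjusted p = 1.61e-06). Between MIZ and undifferentiated cells the difference was small (−0.15, SE 0.0508, adjusted p = 0.0262), and it missed the threshold with DESeq2 (adjusted p = 0.0813), with relative log expression scaling (0.0689) and without MIZ replicate 2 (0.114) or undifferentiated replicate 2 (0.067). The last 53 exonic bases of Elovl1 overlap the end of Cdc20, a mitotic gene on the opposite strand, and whether the counting used strand is not given in the sources used here. Cdc20 averaged 2.98 CPM in MIZ, 2.24 CPM in vehicle and 22.5 CPM in undifferentiated cells, and its part in the Elovl1 counts was not tested.

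Elovl7 and Elovl2 were close to the floor. Elovl7 (ENSMUSG00000021696, GRCm38 chr13:108214404-108285683, plus strand) had 0.340, 0.407 and 0.266 CPM in MIZ, 0.788, 0.451 and 0.823 CPM in vehicle, and 0.568, 0.697 and 0.939 CPM in undifferentiated cells, from 9 to 55 counts per library. It was called lower in MIZ than in vehicle cells (log2 fold change −0.99, SE 0.338, adjusted p = 0.0221 by edgeR), and this call was lost without MIZ replicate 1 (adjusted p = 0.0559), MIZ replicate 3 (0.0656) or vehicle replicate 3 (0.0856). It was lower in MIZ than in undifferentiated cells (−1.13, SE 0.324, adjusted p = 0.00988). Vehicle and undifferentiated libraries overlapped (−0.14, 95% interval −0.78 to 0.50, adjusted p = 0.674). Elovl2 (ENSMUSG00000021364, GRCm38 chr13:41182381-41220405, minus strand), which makes the precursors of docosahexaenoic acid in liver, retina and testis, had too few counts to be tested. It had 2, 0 and 0 counts in MIZ, 4, 9 and 3 counts in vehicle, and 1, 1 and 4 counts in undifferentiated cells. Its ratio was 0.129 for MIZ over vehicle (95% interval 0.0144 to 0.548) and 3.32 for vehicle over undifferentiated cells (1.23 to 10.4), both for counting error only.

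**Figure D2:**
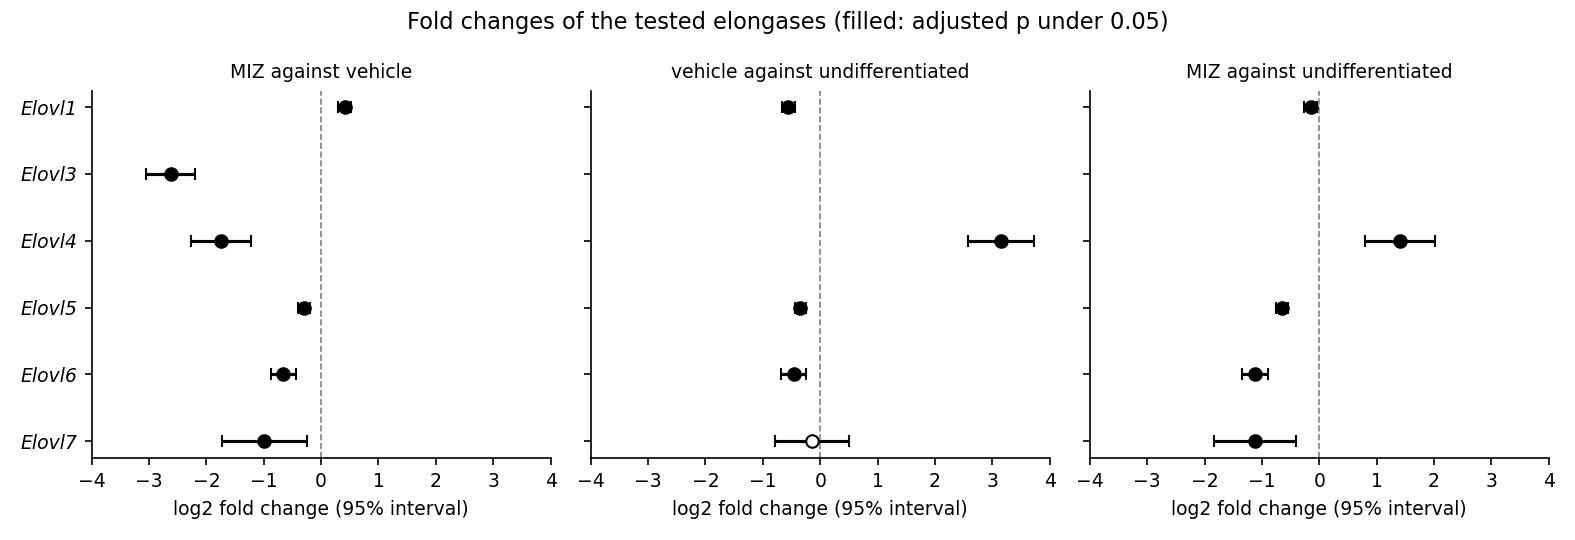
Log2 fold change with its 95% interval from edgeR (horizontal axis) for the 6 tested elongases in MIZ against vehicle, vehicle against undifferentiated and MIZ against undifferentiated cells, filled where called. Elovl1 is the only point right of 0 in MIZ against vehicle, and Elovl3 is left out of the panels against undifferentiated cells, which held 4 counts of it.

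The start regions of 4 elongases are shown, each from 250 bases before to 50 after the RefSeq start site (RefSeq, GRCm38.p6). Capitals mark matches to the motifs searched. Of the 7 elongases, 6 have such a region in the table used, and Elovl3 was not matched. Elovl4 was highest in vehicle, Elovl5 and Elovl6 lowest in MIZ, and Elovl1 lowest in vehicle.
Elovl4, chr9:83806256-83806555, minus strand: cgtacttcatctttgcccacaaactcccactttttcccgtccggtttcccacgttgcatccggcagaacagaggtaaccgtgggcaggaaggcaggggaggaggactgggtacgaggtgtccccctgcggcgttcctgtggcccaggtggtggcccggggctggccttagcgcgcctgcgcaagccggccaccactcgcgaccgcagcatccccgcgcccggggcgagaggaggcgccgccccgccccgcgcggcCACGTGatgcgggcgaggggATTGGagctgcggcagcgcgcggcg
Elovl6, chr3:129532136-129532435, plus strand: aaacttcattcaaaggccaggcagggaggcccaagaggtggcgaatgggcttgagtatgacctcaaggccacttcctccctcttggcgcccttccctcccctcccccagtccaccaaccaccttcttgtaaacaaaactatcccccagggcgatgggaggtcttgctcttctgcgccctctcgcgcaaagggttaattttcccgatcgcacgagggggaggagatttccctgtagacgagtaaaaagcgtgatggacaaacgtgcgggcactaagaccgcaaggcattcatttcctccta
Elovl5, chr9:77917115-77917414, plus strand: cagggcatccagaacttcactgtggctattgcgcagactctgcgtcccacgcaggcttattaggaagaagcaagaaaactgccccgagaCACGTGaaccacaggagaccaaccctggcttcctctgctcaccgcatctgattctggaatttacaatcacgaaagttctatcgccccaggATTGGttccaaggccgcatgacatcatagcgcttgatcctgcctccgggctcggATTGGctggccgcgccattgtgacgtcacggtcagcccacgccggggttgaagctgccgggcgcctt
Elovl1, chr4:118427843-118428142, plus strand: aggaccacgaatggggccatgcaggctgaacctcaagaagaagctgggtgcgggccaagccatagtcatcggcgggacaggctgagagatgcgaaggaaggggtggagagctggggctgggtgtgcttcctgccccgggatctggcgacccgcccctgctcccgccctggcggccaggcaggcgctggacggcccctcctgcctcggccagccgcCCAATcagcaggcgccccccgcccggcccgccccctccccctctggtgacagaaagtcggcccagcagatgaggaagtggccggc

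Both strands were searched for the letters of the E-box (CACGTG), the CCAAT box (CCAAT), the TATA box (TATAAA), the sterol regulatory element (TCACNCCAC), the C/EBP palindrome (TTGCGCAA) and DR1 (AGGTCA, any base, AGGTCA). The E-box was found at base 256 of the Elovl4 region, just after the start site, and at base 90 of the Elovl5 region. It occurs in 7.15% of the 32851 mouse regions of this length. The CCAAT box, found in 37.4% of all regions, lay in the Elovl1 region at base 216, in the Elovl4 region at base 276 and in the Elovl5 region at bases 180 and 234, in the last 2 genes on the opposite strand. The Elovl6 region held none of these letters. The sterol regulatory element (1.24% of all regions), the C/EBP palindrome (0.183%), DR1 (0.0396%) and the TATA box (13.6%) were in none of the 8 regions listed for the elongases.

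To compare levels between elongases, CPM were divided by the exonic length of each gene in kb. In MIZ cells the order was Elovl1 at 23.0 ± 1.47, Elovl5 at 13.3 ± 0.568, Elovl3 at 12.1 ± 4.19, Elovl6 at 1.66 ± 0.241 and Elovl4 at 1.13 ± 0.207 CPM per kb (SD, n = 3). Elovl5 and Elovl3 overlapped there. In vehicle cells Elovl3 led with 73.9 ± 2.99 CPM per kb, followed by Elovl1 at 17.2 ± 0.307, Elovl5 at 16.3 ± 0.432, Elovl4 at 3.73 ± 1.25 and Elovl6 at 2.63 ± 0.227, of which Elovl4 and Elovl6 overlapped. In undifferentiated cells the order was Elovl1 at 25.4 ± 0.404, Elovl5 at 20.8 ± 0.297, Elovl6 at 3.61 ± 0.122 and Elovl4 at 0.424 ± 0.0427 CPM per kb. Elovl7 reached at most 0.234 CPM per kb in a library and Elovl2 at most 0.0487.

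**Figure D3:**
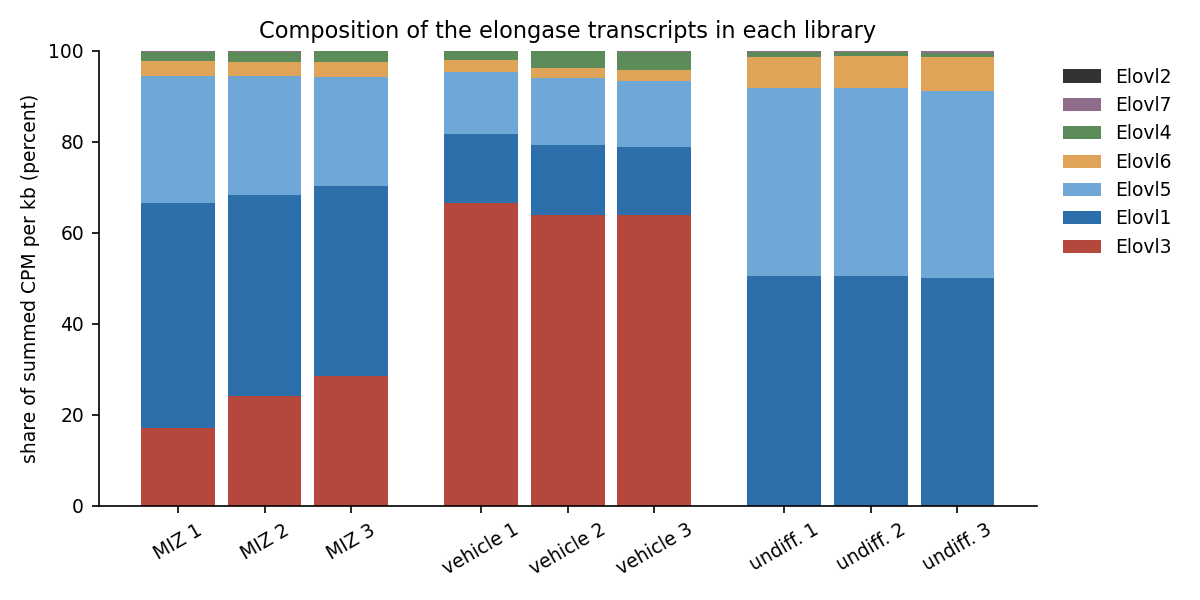
Share of each elongase in the summed CPM per kb of the 7 genes (vertical axis, percent) in each of the 9 libraries (horizontal axis). Elovl3 takes 63.8% to 66.6% in vehicle, 17.0% to 28.5% in MIZ and at most 0.0517% in undifferentiated cells, and Elovl2 and Elovl7 are too low to be seen in most bars.

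The make-up of the elongase transcripts differed accordingly. Elovl3 took 17.0%, 24.2% and 28.5% of the summed level in MIZ, 66.6%, 64.0% and 63.8% in vehicle, and 0.0231%, 0% and 0.0517% in undifferentiated cells. Elovl1 took 45.1% ± 4.01 in MIZ, 15.1% ± 0.0322 in vehicle and 50.4% ± 0.302 in undifferentiated cells (SD, n = 3). Elovl5 took 26.1% ± 2.03 in MIZ, 14.3% ± 0.612 in vehicle and 41.2% ± 0.0603 in undifferentiated cells. Elovl4 took 2.19% ± 0.169 in MIZ and 3.28% ± 1.13 in vehicle cells, and those libraries overlapped. The summed level was 51.2 ± 5.64 CPM per kb in MIZ, 114.1 ± 2.22 in vehicle and 50.4 ± 0.653 in undifferentiated cells. Without Elovl3, a sum chosen after the values were seen, it was 39.1 ± 2.31 CPM per kb in MIZ and 40.2 ± 1.31 in vehicle cells, which overlapped (two-sided exact permutation test, p = 0.6), and 50.4 ± 0.662 in undifferentiated cells. With 3 against 3 libraries this test cannot give a p below 0.1. Of 45 such comparisons of shares and sums, 34 reached 0.1, which was 0.132 after Benjamini-Hochberg adjustment.

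Within that sum of 6 elongases, chosen in the same way, shares still differed between MIZ and vehicle cells. Elovl1 took 58.7% ± 0.851 in MIZ and 43.0% ± 1.91 in vehicle cells. Elovl5 took 34.0% ± 0.574 in MIZ and 40.7% ± 0.542 in vehicle cells. Elovl6 took 4.24% ± 0.417 in MIZ and 6.55% ± 0.741 in vehicle cells, and Elovl4 took 2.88% ± 0.432 in MIZ and 9.23% ± 2.87 in vehicle cells. For each of these 4 genes there was no overlap between MIZ and vehicle. The exact permutation p was 0.1 each, the lowest this test can give, and 0.132 after Benjamini-Hochberg adjustment. Shares of 1 sum depend on each other, so these are not 4 separate results. How many of all genes tested did not overlap was not counted, and 71.0% of them were called in MIZ against vehicle.

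Of 7 genes for the enzymes that complete the elongation cycle, 6 were tested. In MIZ against vehicle, 2 were called higher and 3 lower, where 35.9% of all genes tested were called higher and 35.1% lower, and their median was −0.46 on the log2 scale. In vehicle against undifferentiated, 4 were called higher and 1 lower, beside 36.2% and 41.5% of all genes tested, with a median of 1.16 where that of all genes tested was −0.08. In MIZ against undifferentiated, 3 were called higher and 1 lower, beside 33.7% and 33.3% of all genes tested, with a median of 0.12 beside 0.00 over all genes tested.

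Hsd17b12, the reductase of the first ketone, had 119.2, 134.0 and 149.1 CPM in MIZ, 604.3, 608.8 and 618.6 CPM in vehicle, and 61.7, 65.4 and 62.7 CPM in undifferentiated cells. It thus lay in the order seen for Elovl3 and Elovl4. Its log2 fold change was −2.19 (SE 0.0726, adjusted p = 5.1e-10 by edgeR) in MIZ against vehicle and 3.27 (SE 0.0761, adjusted p = 2.37e-11) in vehicle against undifferentiated cells. Tecr, the last reductase of the cycle, had 73.6, 68.2 and 68.5 CPM in MIZ, 131.3, 141.3 and 150.3 CPM in vehicle, and 79.2, 73.0 and 74.0 CPM in undifferentiated cells. It fell in MIZ against vehicle cells (−1.01, SE 0.0591, adjusted p = 4.97e-08) and was not called against undifferentiated cells (−0.10, SE 0.0589, adjusted p = 0.138), although it passed with scaling by total counts alone (adjusted p = 0.0492). Tecrl, its muscle paralog, was not tested, with 5, 6 and 1 counts in MIZ, 0 in each vehicle library and 1, 3 and 0 in undifferentiated cells.

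The 4 dehydratases took different courses. Hacd2, which is broadly expressed, had 22.4, 21.1 and 23.3 CPM in MIZ, 58.0, 64.6 and 63.1 CPM in vehicle, and 22.0, 25.8 and 22.3 CPM in undifferentiated cells. It was lower in MIZ than in vehicle cells (log2 fold change −1.48, SE 0.0734, adjusted p = 1.26e-08 by edgeR). Hacd1, the form known from muscle, had 26.1, 28.2 and 31.1 CPM in MIZ, 25.6, 28.3 and 26.2 CPM in vehicle, and 5.66, 6.05 and 6.23 CPM in undifferentiated cells. MIZ and vehicle libraries overlapped (0.09, SE 0.0739, adjusted p = 0.296), and both groups were above undifferentiated cells (2.25, SE 0.0809, adjusted p = 3.17e-09 for MIZ). With scaling by total counts alone, which moves the median of all genes by 0.137 in this comparison, Hacd1 was called higher in MIZ than in vehicle cells (0.23, adjusted p = 0.0171). The 6 skeletal muscle markers summed to 39.9 to 68.7 CPM in MIZ, 4.40 to 8.93 CPM in vehicle and 4.30 to 4.81 CPM in undifferentiated cells, and their part in Hacd1 was not tested. Acta1, the skeletal muscle actin, carried the difference, with 46.7 CPM in MIZ and 1.48 CPM in vehicle cells. Ttn was not called between MIZ and vehicle (adjusted p = 0.294 by edgeR), and Myod1 and Myog were at 0 in MIZ cells. Hacd3, also broadly expressed, was 1.32-fold higher in MIZ than in vehicle cells, at 54.2 ± 0.740 CPM in MIZ, 41.2 ± 1.05 CPM in vehicle and 43.8 ± 1.39 CPM in undifferentiated cells (SD, n = 3). Hacd4, known for its expression in leukocytes, had 13.6, 12.1 and 13.5 CPM in MIZ, 2.74, 3.09 and 4.31 CPM in vehicle, and 83.9, 96.8 and 93.3 CPM in undifferentiated cells. The 6 leukocyte markers summed to 430.3 to 599.2 CPM in MIZ, 264.8 to 445.8 CPM in vehicle and 1012 to 1138 CPM in undifferentiated cells, with Cd3e at 0 in all groups, and their part in Hacd4 was not tested. Of the 4 that could be tested in MIZ against vehicle, 1 was called, where 71.0% of all genes tested were. It was Adgre1, a macrophage marker, with 398.9 CPM in MIZ and 190.6 CPM in vehicle cells. The median of the 4 was −0.17 on the log2 scale.

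**Figure D4:**
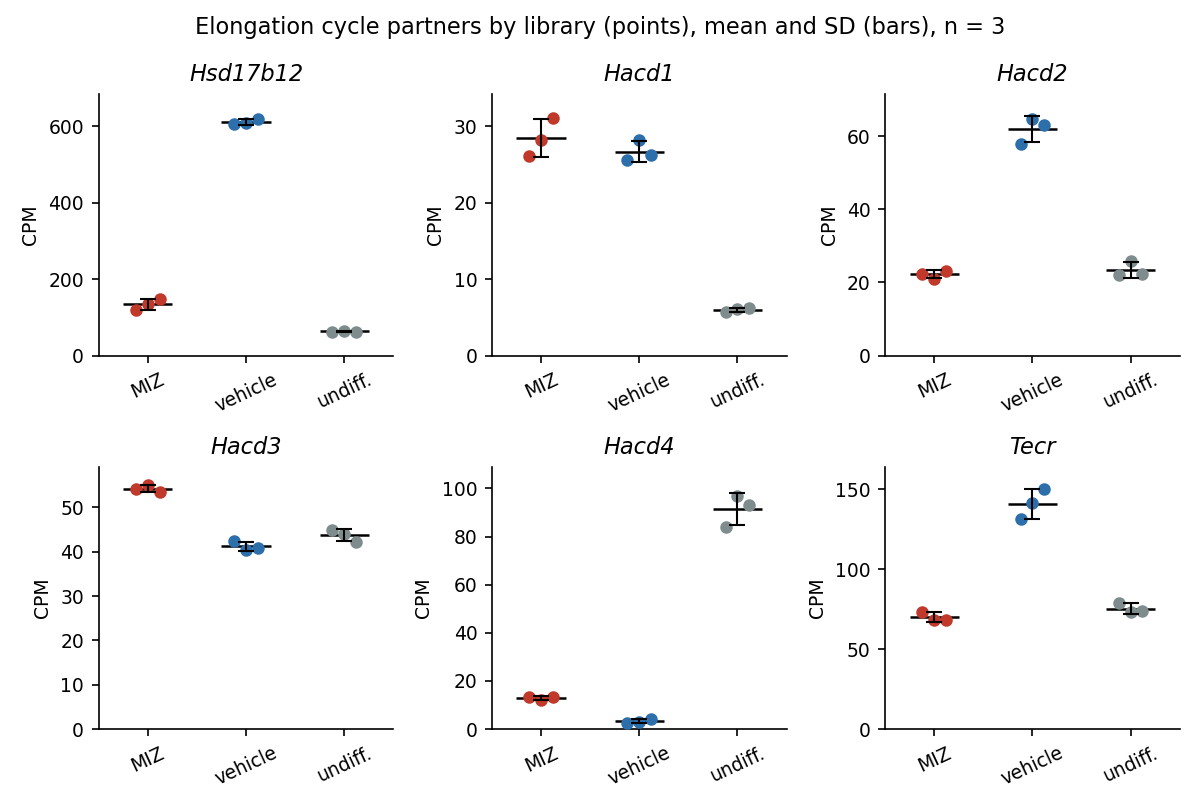
Level (vertical axes, CPM, each from 0 with its own scale) of the 6 tested genes that complete the elongation cycle in MIZ, vehicle and undifferentiated cells (horizontal axis), with 1 point per library and lines for the mean and SD of 3 libraries. Hsd17b12, Hacd2 and Tecr are highest in vehicle, Hacd1 overlaps between MIZ and vehicle, and Hacd4 is highest in undifferentiated cells.

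The list of 8 genes around malonyl-CoA and palmitate, the substrates of elongation, does not hold genes of their supply alone. Mlycd, for example, breaks malonyl-CoA down. All 8 were called lower in MIZ than in vehicle cells, where 35.1% of all genes tested were, with a median of −1.75 on the log2 scale. Acacb, the acetyl-CoA carboxylase form bound to mitochondria, had the largest fold change of the 8 (−5.37 on the log2 scale). It was at 12.1 ± 3.35 CPM in MIZ, 495.8 ± 32.4 CPM in vehicle and 5.67 ± 0.564 CPM in undifferentiated cells (SD, n = 3). Acaca, the carboxylase for fatty acid synthesis, had 180.2, 210.4 and 242.1 CPM in MIZ, 789.6, 782.1 and 791.4 CPM in vehicle, and 121.1, 123.5 and 122.4 CPM in undifferentiated cells. Mlycd was at 11.9 ± 0.896 CPM in MIZ and 54.2 ± 5.60 CPM in vehicle cells. In vehicle against undifferentiated cells all 8 were called higher, beside 36.2% of all genes tested, with a median of 2.45.

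Desaturases insert double bonds, and not all of those listed act on fatty acid chains before or after elongation. Among 9 tested, 7 were called lower and 1 higher in MIZ against vehicle (35.1% and 35.9% of all genes tested), with a median log2 fold change of −1.59. Scd1, the main desaturase of stearate, had 229.9, 270.3 and 302.9 CPM in MIZ, 22300.0, 27040.0 and 26920.0 CPM in vehicle, and 102.6, 104.7 and 110.4 CPM in undifferentiated cells. Scd3 was at 0.754 ± 0.247 CPM in MIZ and 87.3 ± 9.67 CPM in vehicle cells, with 0 counts in undifferentiated cells. Fads6 had 0.453, 0.244 and 0.118 CPM in MIZ, 1.76, 3.11 and 4.05 CPM in vehicle, and 2.18, 2.16 and 1.98 CPM in undifferentiated cells. Degs1, the desaturase of dihydroceramide, went the other way, at 161.9 ± 2.78 CPM in MIZ and 94.4 ± 11.9 CPM in vehicle cells (log2 fold change 0.78, SE 0.0733, adjusted p = 2.61e-06 by edgeR).

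Ceramide synthases join the finished acyl chains to a sphingoid base, each with its own range of chain lengths. Of 6 tested, 2 were called higher and 2 lower in MIZ against vehicle, near the 35.9% and 35.1% of all genes tested, and the median log2 fold change was 0.15. Cers6 had 155.0, 165.7 and 176.8 CPM in MIZ, 54.5, 36.8 and 34.0 CPM in vehicle, and 75.6, 77.9 and 77.7 CPM in undifferentiated cells. It was higher in MIZ than in both other groups (2.00, SE 0.143, adjusted p = 2.61e-07 against vehicle and 1.10, SE 0.137, adjusted p = 3.25e-05 against undifferentiated cells, by edgeR). Cers5, which like Cers6 uses palmitoyl-CoA, was also higher in MIZ than in vehicle cells (1.07, SE 0.0593, adjusted p = 3.07e-08) but lower in MIZ than in undifferentiated cells (−0.45, adjusted p = 4.01e-05). Cers4 was lower in MIZ than in vehicle cells, at 16.0 ± 0.598 CPM in MIZ and 25.3 ± 4.18 CPM in vehicle cells.

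**Figure D5:**
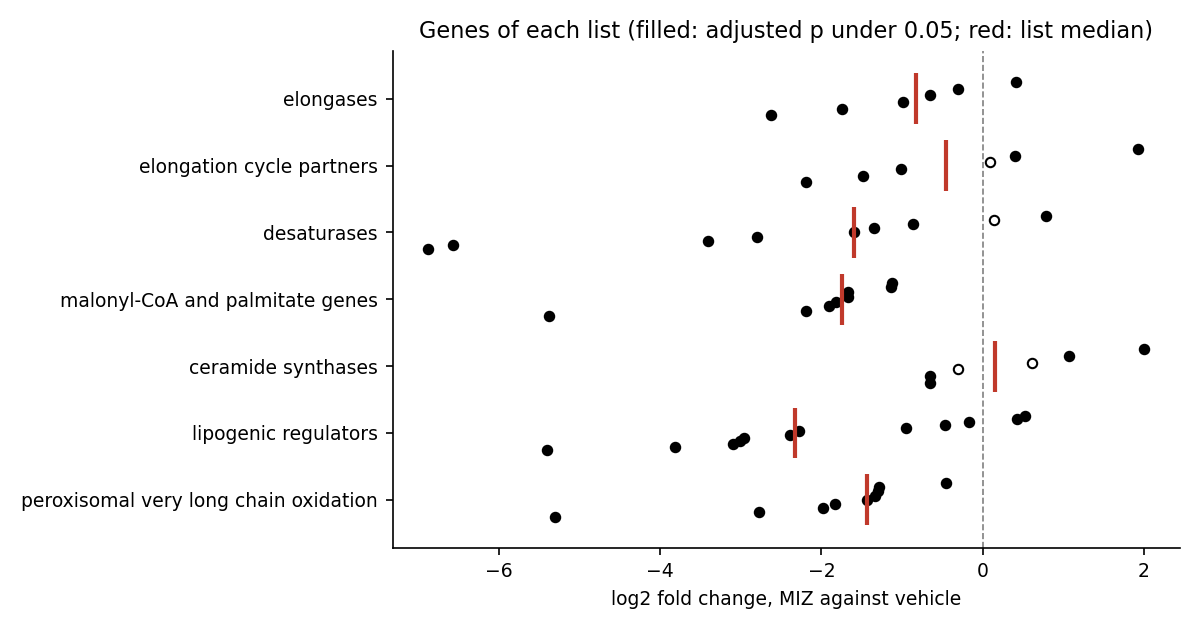
Log2 fold change in MIZ against vehicle (horizontal axis) of each tested gene of the elongases and of 6 lists of genes around them (vertical axis), filled where called, with the median of each list in red. The median is −0.82 for elongases, −0.46 for cycle partners, −1.59 for desaturases, −1.75 for malonyl-CoA and palmitate genes, 0.15 for ceramide synthases, −2.33 for lipogenic regulators and −1.43 for peroxisomal oxidation.

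Among 12 genes listed as lipogenic regulators, 10 were called lower and 2 higher in MIZ against vehicle (35.1% and 35.9% of all genes tested). Their median was −2.33 on the log2 scale. Not all genes of this list promote lipid synthesis. Ppara, a nuclear receptor of fatty acid oxidation, had 1.70, 1.52 and 1.92 CPM in MIZ, 73.4, 74.8 and 68.3 CPM in vehicle, and 0.636, 0.562 and 0.905 CPM in undifferentiated cells. Mlxipl, which encodes the sugar-sensing factor ChREBP, averaged 5.44 ± 1.03 CPM in MIZ and 75.9 ± 3.17 CPM in vehicle cells (SD, n = 3). Insig1, which retains SREBP precursors, averaged 55.0 ± 7.87 CPM in MIZ and 468.6 ± 40.9 CPM in vehicle cells. Scap, the escort of SREBP, was higher in MIZ cells (0.53, SE 0.0542, adjusted p = 5.33e-06 by edgeR).

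All 9 genes listed for peroxisomal oxidation were called lower in MIZ against vehicle, where 35.1% of all genes tested were, with a median of −1.43. Acaa1b, a peroxisomal thiolase, averaged 4.71 ± 1.12 CPM in MIZ and 183.7 ± 3.83 CPM in vehicle cells (SD, n = 3). Hsd17b4, which encodes the bifunctional enzyme, averaged 93.4 ± 5.24 CPM in MIZ and 367.9 ± 28.6 CPM in vehicle cells. The 8 thermogenic genes, followed because cold induces Elovl3, were all called lower as well, and 5 of the 8 were called higher in MIZ against undifferentiated cells, where 33.7% of all genes tested were. Ucp1, the uncoupling protein of brown fat, had 0, 1 and 1 counts in MIZ and 1661, 2840 and 2594 counts in vehicle cells. Cidea, a lipid droplet protein of brown fat, had 0, 0 and 1 counts in MIZ and 2857, 5548 and 5824 counts in vehicle cells. Cox8b, a subunit of cytochrome c oxidase, averaged 0.481 CPM in MIZ and 82.2 CPM in vehicle cells.

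For each tested elongase, the 3 genes with the most similar pattern were taken, by the Euclidean distance of centred log2 CPM over the 9 libraries among 11773 genes that averaged 5 CPM or more in any group (11774 for Elovl7). For Elovl3 they were A530016L24Rik (distance 0.935), Lgals12 (1.35) and Gpd1 (1.39). A530016L24Rik averaged 16.9 CPM in MIZ, 119.0 CPM in vehicle and 0.00757 CPM in undifferentiated cells. For Elovl4 they were Peg10 (0.371), Hilpda (0.613) and Olfm2 (0.661), and for Elovl6 Msmo1 (0.251), Dock11 (0.308) and Lancl2 (0.322). Msmo1, a demethylating oxidase of cholesterol synthesis, averaged 27.0 CPM in MIZ, 44.2 CPM in vehicle and 62.9 CPM in undifferentiated cells. For Elovl5 they were Dennd1b (0.155), Lin54 (0.158) and Atp6v1a (0.16), and for Elovl1 Sept8 (0.113), Nono (0.115) and Cmas (0.145). Elovl7 had no gene nearer than 0.785, the distance to D030028A08Rik, ahead of 1600020E01Rik (0.792) and Uba7 (0.799). Ranking by Pearson correlation in place of distance kept 1 of the 3 genes for Elovl3, Elovl4 and Elovl7 and 0 of 3 for Elovl1, Elovl5 and Elovl6.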

How the data were processed

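RNA was measured in 9 libraries. The authors made libraries after removal of ribosomal RNA and, by their methods, poly-A selection. They sequenced paired reads of 150 bases, trimmed them (Trim Galore 0.6.7) and used GRCm38 (mm10) for alignment. They deposited raw counts per gene, without normalization. The methods name counting within STAR and the processing notes also name HTSeq. Annotation release and strand setting are not given in the sources used here. Symbols were found for 32158 of 32285 identifiers.

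A gene needed 5 counts or more in 3 or more libraries to be tested (17173 genes). One edgeR 4.0.16 model (R 4.3.3) covered all 9 libraries, with TMM factors and Benjamini-Hochberg adjustment over all genes tested. CPM use TMM library sizes. Standard errors come from the fold change and its F value. Exonic lengths and overlaps came from GENCODE M21 (GRCm38). The fit was also run on counts simulated from the vehicle means, with far fewer genes changed than were called in MIZ against vehicle. The elongases, the gene lists and the tests were chosen with earlier results of these data known. Named genes were all elongases and partners, up to 3 called genes per other list with the largest change in MIZ against vehicle and 1 of the opposite direction, and the 3 nearest genes of each elongase. A gene that this rule takes is not reported here. Other scalings, other filters, DESeq2 1.42.0, a replicate block and fits without each library were tried. Metabolite data were not used here.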

Additional observations from a re-analysis of the deposited data

How the results depend on the processing

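Over 17 alternative settings, 1 of them DESeq2 in place of edgeR, 297 of 306 log2 fold changes of elongases kept their direction and their side of the threshold. The exceptions were all for Elovl7 or Elovl1. Elovl7 in vehicle against undifferentiated cells changed sign without vehicle replicate 2 (0.13) and without undifferentiated replicate 3 (0.09), with values between −0.32 and 0.13 over all such fits, and was called under no setting. The call of Elovl7 in MIZ against vehicle and that of Elovl1 in MIZ against undifferentiated cells were lost under the settings given with them. Without each library in turn, the Elovl3 value in MIZ against vehicle ran between −2.92 and −2.40. With scaling by total counts alone, 2 partners in place of 1 were called lower in vehicle against undifferentiated and 2 in place of 1 in MIZ against undifferentiated cells. That scaling moves the median of all genes by 0.137 in MIZ against vehicle and by −0.178 in vehicle against undifferentiated cells, and no elongase changed direction under it. Without length correction, Elovl3 took 15.9% of the elongase total in MIZ and 52.2% in vehicle cells, and with the length of the longest transcript 59.2% in vehicle cells. Without length correction Elovl5 also came before Elovl1 in vehicle cells (20.6% and 16.8%) and in undifferentiated cells (43.6% and 41.3%), and Elovl6 took 7.22% in MIZ in place of 3.24%. Without any filter, Elovl2 had a log2 fold change of −2.78 in MIZ against vehicle (SE 0.996, edgeR adjusted p = 0.0274). Correlations of deviations between samples of the same replicate number were small, between −0.0447 and 0.063. In MIZ against undifferentiated cells every sample correlated best with its own number (0.063, 0.0295 and 0.0178). In the comparisons with vehicle cells not every sample did. These values cannot decide whether replicate numbers pair the samples. With the replicate block, Elovl3 was −2.66 and Elovl1 0.41 in MIZ against vehicle. Under it, 6093 genes were called higher and 5927 lower in that comparison, in place of 6161 and 6029. No log2 fold change of a tested elongase or partner changed its direction or its side of the threshold with the block. The study's general methods plate the cells of each animal separately, the labels do not tie libraries to animals, and p-values measure the spread between these samples. Depth limits statements on Elovl2 and Elovl7.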
